A study of Trametes versicolor with 3 samples.

Results

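The heat shock proteins and chaperones of the white-rot fungus Trametes versicolor, which decays hardwood, were followed in mycelium grown on 3 media. Members were gene models whose protein description, or first KEGG orthology entry, held the words heat shock, chaperon or DnaJ, or HSP followed by a digit. Models whose text also named a transcription factor or a histone were left out. This gave 65 of 11480 gene models, after 6 of the 71 matched models had been set aside. The 11480 are the models with reads in some library, so a chaperone gene silent in all of them could not be a member. The 65 were 11 small heat shock proteins, 6 HSP70, 2 HSP90, 34 DnaJ, 5 BCS1 and 7 remaining members.

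Chaperones bind proteins that are not fully folded and keep them from aggregating. Small heat shock proteins of the HSP20 family hold unfolded proteins without using ATP. HSP70 binds and releases them in an ATP cycle that DnaJ proteins start, and HSP90 acts later on a narrower set of client proteins. Many members of these families rise when cells are heated or otherwise stressed, while other members, called cognate or constitutive, are made at all times.

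The isolate was CICC 14001, and the mycelial mat had reached 4 cm after 9 days at 25 ºC. The media were PDA (usually potato dextrose agar), a medium with glucose as carbon source, and a poplar medium. With 1 library a medium, no difference has a replicate check, no p-value was computed, and every value describes these libraries alone. The growth protocol in the labels names PDA for every sample, against their source names, which were used here.

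Levels are given as RPKM, the read count divided by gene model length and by the library's total, which can be compared between genes. Folds are ratios of RPKM with the exact 95% interval of the read ratio in parentheses. Members under 1 RPKM in both libraries of a comparison were not measured in it. The others were called from a 2-fold difference in RPKM plus 1. The libraries held 2.85 M (PDA), 2.68 M (glucose) and 2.80 M (poplar) uniquely assigned reads.

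The text rule takes in more than protein folding factors. Of the 65 members, 42 matched by description and 23 through the KEGG entry alone. Trave1_133934 is described as a BRO1-domain protein and Trave1_27341 as a ChaC-like protein, and both entered as DnaJ through KEGG. The BCS1 models entered through KEGG alone, by the entry for the mitochondrial chaperone BCS1. Their descriptions are P-loop nucleoside triphosphate hydrolase or hypothetical protein. A copper carrier, an amino acid permease chaperone and a proteasome assembly chaperone are also among the members. The label therefore fits the HSP classes and less closely these others.

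The chaperone transcripts made up a similar share of each library, although the intervals of the 3 shares did not overlap. They held 0.887% of reads in the PDA library (exact binomial 95% interval 0.876 to 0.898), 0.853% in the glucose library (0.842 to 0.864) and 0.801% in the poplar library (0.791 to 0.812). Their summed RPKM was 7697, 7306 and 7627 in the same order. In bulk mycelium, fewer hyphae of a kind and less RNA per cell cannot be told apart. Of the 65 members, 63 had reads in every library, 60 reached 10 RPKM in some library and 22 reached 100 RPKM. The make-up of the sum differed between libraries more than its size. Small heat shock proteins supplied 24.4% of the summed RPKM on PDA, 26.7% on glucose and 31.1% on poplar. The high share on poplar rests on a single model, Trave1_59887. Without it the class summed to 513 RPKM on PDA, 1036 on glucose and 420 on poplar.

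**Figure D1:**
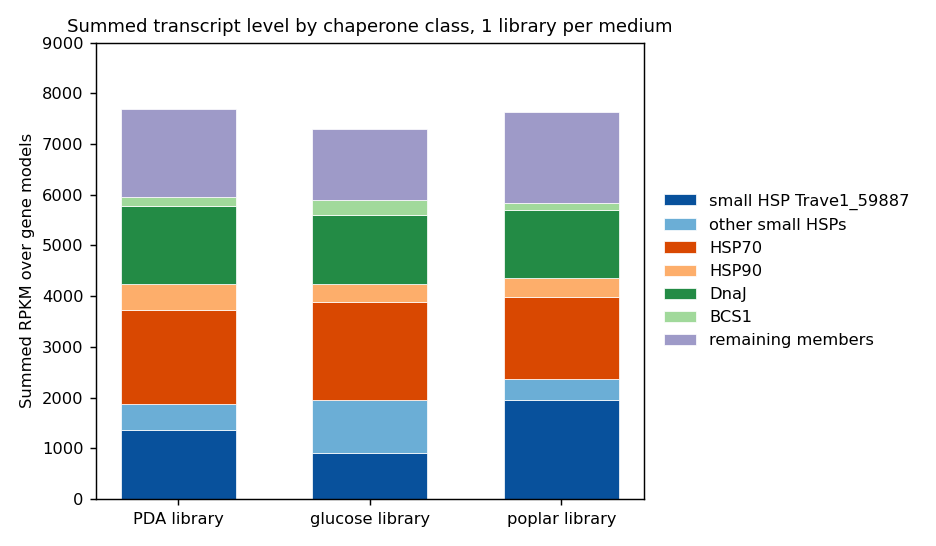
Summed RPKM (vertical axis) of the chaperone classes in the PDA, glucose and poplar libraries, with the small heat shock protein Trave1_59887 drawn apart from the other small heat shock proteins. Bar heights are 7697, 7306 and 7627, and Trave1_59887 takes 1365, 915 and 1954 RPKM of them.

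Between the poplar and glucose libraries, whose media may differ in more than the carbon source, 6 of 64 measured members were higher on poplar and 6 were lower. For each of these 12 the interval lay wholly on that side of 1. The background over 10636 genes was 8.10% higher and 8.31% lower, 16.4% in either direction, so the members' 18.8% lies near it. Their median log2 ratio was 0.07, beside 0.08 over all genes. The called members were unevenly spread over the classes. They were 7 of 10 measured small heat shock proteins, 3 of 34 DnaJ, 1 of 5 BCS1, 1 of 7 remaining members, and none of the 6 HSP70 and 2 HSP90.

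Between the poplar and PDA libraries, 0 of 64 measured members were higher and 4 were lower, beside 10.8% and 5.11% over all 10506 genes. In either direction this was 6.25% of members and 15.9% of all genes. The lower members were Trave1_174621, Trave1_127684, Trave1_168423 and Trave1_155473, and for Trave1_127684 the interval included 1. Between the glucose and PDA libraries, 5 of 63 members were higher and 4 lower, beside 12.7% and 6.52% over all 10487 genes. In either direction this was 14.3% of members and 19.2% of all genes. The interval excluded 1 for all 5 of the higher and for 3 of the lower. Of these 9 members, 6 were small heat shock proteins. The member medians were −0.06 and −0.15 in these comparisons, beside 0.09 and 0.01 over all genes. The 3 comparisons share libraries, so their ratios are not independent of each other.

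**Figure D2:**
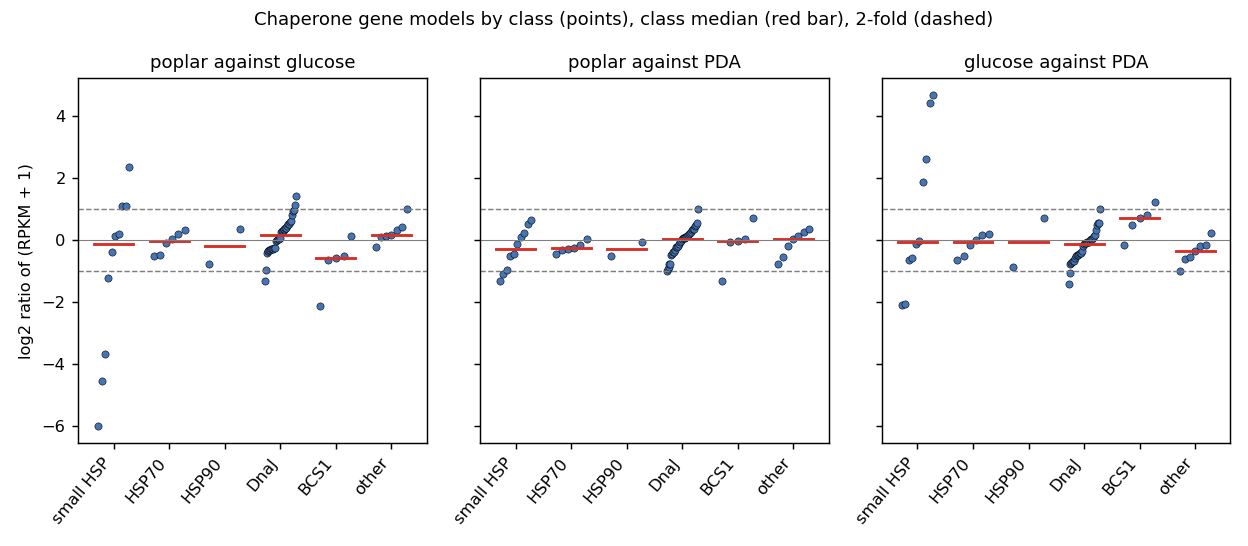
Log2 ratio of RPKM plus 1 for each measured member (points) by class in the 3 comparisons, with the class median as a red bar and the 2-fold limits dashed. Small heat shock proteins range from −6.01 to 2.35 for poplar against glucose, whereas all HSP70 and HSP90 points lie inside the limits in every panel.

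Small heat shock proteins differed most among themselves. Their gene models were 294 to 828 bases long, against 1839 to 2325 for HSP70, so fewer reads stand behind a given RPKM. Trave1_59887, an HSP20-like chaperone, had the highest level of all members in each library. It measured 1365 RPKM on PDA, 915 on glucose and 1954 on poplar. It was 2.14-fold higher (1.99 to 2.29) on poplar than on glucose and 1.43-fold higher (1.35 to 1.52) than on PDA. Among all gene models it stood at rank 97, 171 and 64 in the PDA, glucose and poplar libraries. It made up 72.7%, 46.9% and 82.3% of the class sum in the same order.

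A group of 4 small heat shock proteins was at least 2-fold higher in the glucose library than in both others. Together they summed to 728 RPKM on glucose, 88.6 on PDA and 69.1 on poplar. No member of another class showed this pattern at 2-fold, which 5.06% of the 10756 gene models that reached 1 RPKM in any library showed. The DnaJ model Trave1_72691 fell just short of it.

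Trave1_174621, an HSP20-like chaperone, measured 54.7 RPKM on PDA, 335 on glucose and 25.2 on poplar. The glucose level was 6.13-fold higher (4.92 to 7.70) than that on PDA, and the poplar level was 13.3-fold lower (9.74 to 18.6) than that on glucose. It also differed between the other pair, at 2.17-fold lower (1.498 to 3.19) on poplar than on PDA, although with a pseudocount of 5 the log2 ratio was −0.98, under the 2-fold limit. Its rank among all gene models was 521 on glucose and 4495 on poplar.

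Trave1_167159, of the same description, measured 10.8 RPKM on PDA, 248 on glucose and 9.77 on poplar. These values rest on 18, 389 and 16 reads. The glucose level was 23.01-fold higher (14.4 to 39.2) than on PDA, and the poplar level was 25.4-fold lower (15.5 to 44.9) than on glucose. The PDA and poplar levels did not differ beyond counting error, at 1.105-fold lower on poplar (0.532 to 2.32).

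Trave1_127684, described as a small heat shock protein, had 2 reads on PDA, 78 on glucose and 0 on poplar. The glucose level was 63.5 RPKM and the PDA level 1.53. Against a floor of 3 reads, the poplar level was at least 27.2-fold lower than that on glucose. The glucose level was 41.5-fold higher (11.1 to 349) than that on PDA. The 2 reads on PDA lie under the floor, so the size of this ratio is poorly determined. Between poplar and PDA no fold can be given, since both counts lie under the floor. Reads covered 52.7% of this gene model in the glucose library, against 92.1% to 99.7% for the other 3 of the group.

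Trave1_60019, an HSP20-like chaperone, measured 21.6 RPKM on PDA, 80.9 on glucose and 34.1 on poplar. It was 3.74-fold higher (2.46 to 5.87) on glucose than on PDA and 2.37-fold lower (1.65 to 3.44) on poplar than on glucose. Its ratio between poplar and PDA had an interval that included 1, at 1.58-fold (0.969 to 2.61).

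In all, 5 of the 11 small heat shock proteins had their lowest level on glucose, beside 4017 of the 10756 gene models. Trave1_59887 was among the 5, and so was Trave1_167846, which was nearly level. At least 2-fold lower on glucose than on both other media were 2 weakly transcribed ones, which KEGG assigns to the HSP20 family and whose descriptions are hypothetical. Among the other members the DnaJ model Trave1_159455 alone had this pattern, which 2.80% of the 10756 gene models had. Trave1_48780 measured 22.0 RPKM on PDA, 4.51 on glucose and 10.8 on poplar. It was 4.88-fold lower (2.46 to 10.8) on glucose than on PDA. Trave1_83803, a partial model of 294 bases, had 12, 2 and 14 reads in the PDA, glucose and poplar libraries. Its ratio of poplar to glucose was 6.70 (1.54 to 60.7), so its size is poorly determined. Their gene models were covered to 31.9% and 21.1% in the glucose library.

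The other 4 small heat shock proteins did not reach 2-fold in any comparison. Trave1_167846 was nearly level at 118 RPKM on PDA, 116 on glucose and 127 on poplar. Trave1_68930 measured 228 RPKM on PDA, 146 on glucose and 167 on poplar, and was 1.56-fold lower (1.34 to 1.82) on glucose than on PDA. It is named HSP20-like but has no HSP20 entry in KEGG, and HSP20-like is also the name of a fold that the HSP90 co-chaperone p23 has. Trave1_61192 measured 42.6, 38.9 and 29.1 RPKM on PDA, glucose and poplar, with intervals that included 1 in all 3 comparisons. Trave1_73928 had 0, 1 and 0 reads and was not measured. Reads were counted where they mapped uniquely, so the level of a model with a close copy elsewhere in the genome is uncertain.

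**Figure D3:**
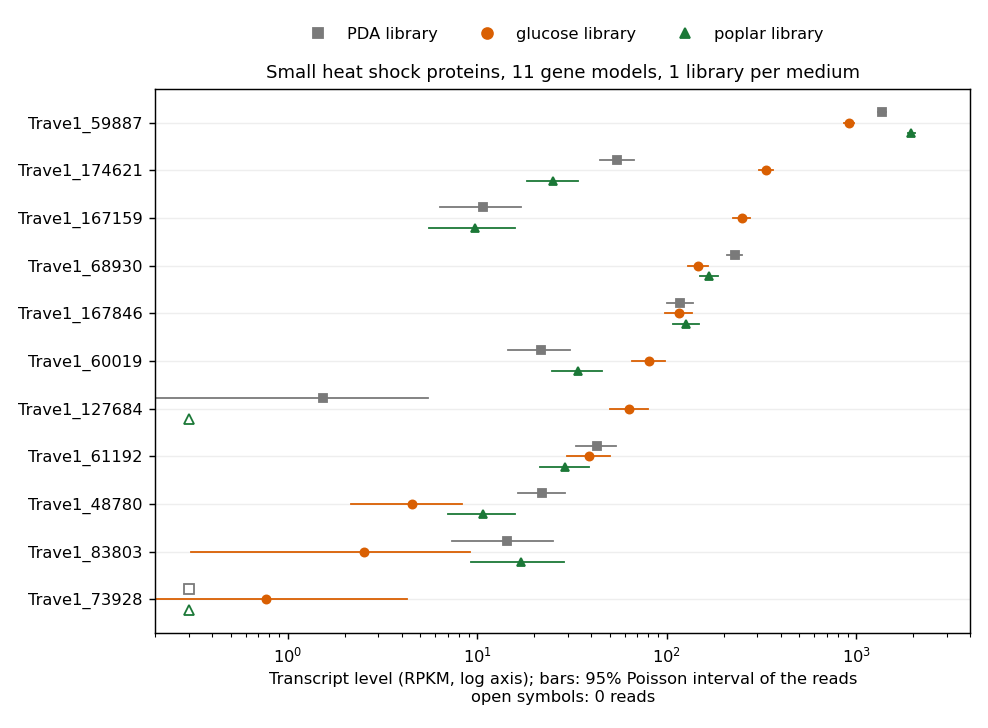
RPKM on a log axis of the 11 small heat shock protein gene models in the PDA (grey squares), glucose (orange circles) and poplar (green triangles) libraries, with 95% Poisson intervals of the reads as bars and open symbols for 0 reads. Orange points lie to the right of the other colours for Trave1_174621, Trave1_167159, Trave1_60019 and Trave1_127684, and to the left for Trave1_59887, Trave1_68930, Trave1_48780 and Trave1_83803.

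The profiles of the 3 small heat shock proteins with the highest level in any single library were set beside those of the 7304 gene models with at least 10 RPKM in any library. Trave1_174621 and Trave1_167159 are among these 3 through their glucose level alone. Likeness was the distance between log2 profiles of RPKM plus 1 over the 3 libraries after each gene's mean was subtracted. Trave1_59887 had 893 gene models within a distance of 0.5, Trave1_174621 had 9 and Trave1_167159 had 5. A fixed distance takes in fewer genes around a profile with large ratios. These counts therefore restate in part the size of each model's ratios and give no separate result. Nearest to Trave1_59887 were the hypothetical protein Trave1_126118, at a distance of 0.019, the oligopeptide transporter Trave1_58261, at 0.026, and the hypothetical protein Trave1_26650, at 0.028. Nearest to Trave1_174621 were the hypothetical proteins Trave1_25035 and Trave1_28216, at 0.090 and 0.14, and the oxidoreductase Trave1_30723, at 0.15. The first of these had 1.08 RPKM on PDA, 12.7 on glucose and 0 on poplar. Nearest to Trave1_167159 were the hypothetical proteins Trave1_85597, Trave1_128081 and Trave1_80645, at 0.094, 0.25 and 0.40. The first and the last of these had 0 reads on PDA and on poplar, and 21.5 and 29.7 RPKM on glucose. Neighbours at or near 0 RPKM outside glucose passed the level filter through glucose alone, and their distances are set in part by the pseudocount of 1. With 3 libraries a profile has few degrees of freedom, and these distances carry no test.

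HSP70 transcripts were abundant and nearly level. Their summed RPKM was 1851 on PDA, 1940 on glucose and 1619 on poplar, and none of the 6 members reached 2-fold in any comparison. Trave1_28053, described as heat shock protein HSS1, measured 632 RPKM on PDA, 712 on glucose and 502 on poplar. It was 1.42-fold lower (1.35 to 1.49) on poplar than on glucose, a difference beyond counting error. Trave1_119367, with the same KEGG entry for the cytosolic type of HSP70, measured 555, 550.4 and 568 RPKM on PDA, glucose and poplar, and its intervals included 1 in every comparison. The 2 models thus exchanged order, with Trave1_28053 above Trave1_119367 in the PDA and glucose libraries and below it in the poplar library, and their Poisson intervals did not overlap in any of the 3.

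Trave1_170905, whose KEGG entry is that of BiP, the HSP70 of the endoplasmic reticulum, measured 399 RPKM on PDA, 457 on glucose and 327 on poplar. It was 1.40-fold lower (1.32 to 1.49) on poplar than on glucose. The 3 remaining HSP70 members and all others outside the naming rule were chosen for mention after their values were seen. Trave1_173933, with the entry for the DnaK or mitochondrial type, measured 177, 159 and 147 RPKM on PDA, glucose and poplar. Trave1_142906, whose entry covers the HSP110-like exchange factors of HSP70, measured 66.2, 46.4 and 58.5 RPKM in that order. Trave1_141108, described as an actin-like ATPase, was lowest of the class at 22.5, 14.1 and 16.3 RPKM.

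The HSP90 members had opposite orders between glucose and PDA, each with a ratio under 2-fold. Trave1_136932 measured 445 RPKM on PDA, 245 on glucose and 312 on poplar. It was 1.82-fold lower (1.70 to 1.94) on glucose than on PDA and 1.28-fold higher (1.19 to 1.37) on poplar than on glucose. Trave1_143243 measured 64.6 RPKM on PDA, 107 on glucose and 62.0 on poplar. It was 1.65-fold higher (1.46 to 1.86) on glucose than on PDA. The level of Trave1_136932 was highest and that of Trave1_143243 near its lowest in the PDA library. Trave1_136932 supplied 87.3%, 69.6% and 83.4% of the summed HSP90 level in the PDA, glucose and poplar libraries.

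**Figure D4:**
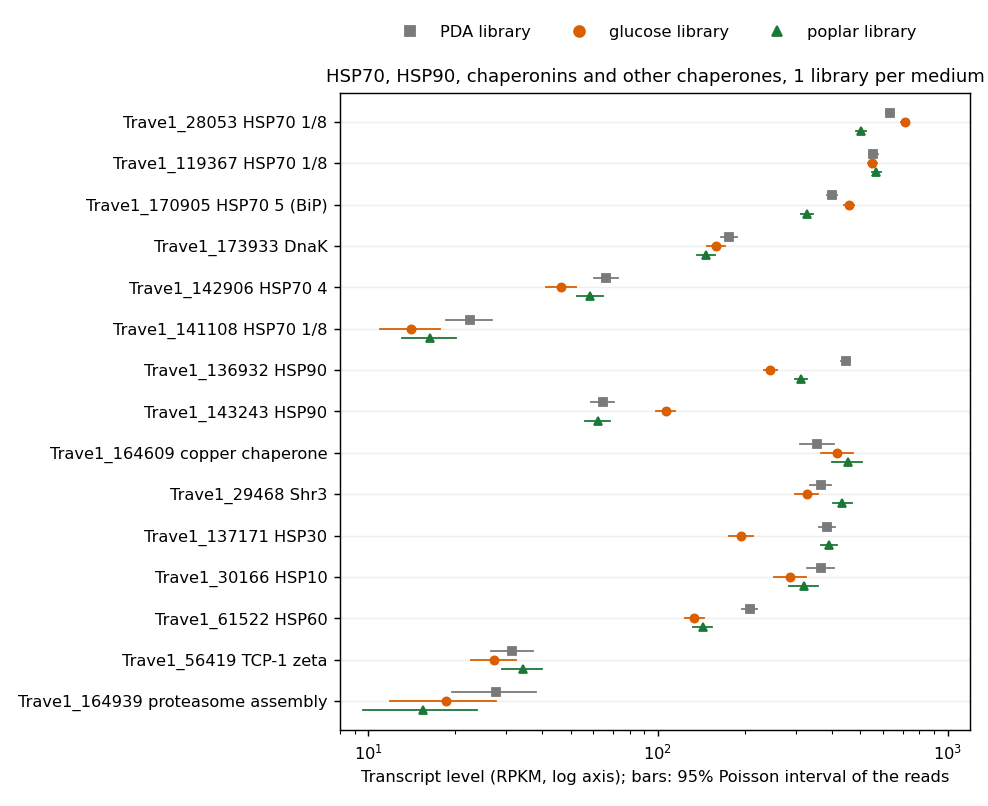
RPKM on a log axis of the HSP70, HSP90 and remaining members in the PDA, glucose and poplar libraries (symbols), with 95% Poisson intervals of the reads as bars. The glucose point is the highest for the HSP90 model Trave1_143243, at 107 RPKM, and the lowest for the HSP90 model Trave1_136932, at 245 RPKM, and for HSP30, at 194 RPKM.

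Among the remaining members, Trave1_137171, described as HSP30, stood at the 2-fold limit. It measured 385 RPKM on PDA, 194 on glucose and 389 on poplar. The poplar level was 2.01-fold higher (1.79 to 2.25) than that on glucose, with a log2 ratio of 1.00, and of 0.91 after median-of-ratios scaling. The glucose level was 1.99-fold lower (1.77 to 2.23) than that on PDA. The files place this protein in the membrane and in ion transport, and the HSP30 of Saccharomyces cerevisiae is a plasma membrane protein, so it was not put with the small heat shock proteins.

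The mitochondrial chaperonins, which enclose proteins during folding, were highest on PDA. HSP60, Trave1_61522, measured 208 RPKM on PDA, 134 on glucose and 143 on poplar, and was 1.55-fold lower (1.40 to 1.71) on glucose than on PDA. Its lid HSP10, Trave1_30166, measured 365, 287 and 319 RPKM in that order and was 1.27-fold lower (1.08 to 1.504) on glucose than on PDA, while its interval for poplar against PDA included 1. The copper chaperone Trave1_164609, which hands copper to transport proteins, measured 356 RPKM on PDA, 416 on glucose and 452 on poplar. Trave1_29468 is named after Shr3, which in S. cerevisiae packages amino acid permeases for export from the endoplasmic reticulum. It measured 364.5 RPKM on PDA, 326 on glucose and 433 on poplar, 1.33-fold higher (1.18 to 1.49) on poplar than on glucose. The proteasome assembly chaperone Trave1_164939 measured 27.6, 18.6 and 15.5 RPKM on PDA, glucose and poplar.

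DnaJ proteins formed the largest class, and few of them reached 2-fold. These were 3 of 34 for poplar against glucose, 1 of 34 for poplar against PDA and 2 of 33 for glucose against PDA. Over all genes the shares in either direction were 16.4%, 15.9% and 19.2% in that order. The summed RPKM of the DnaJ models was 1535 on PDA, 1362 on glucose and 1336 on poplar. Of 34, the level was highest in the PDA library for 12, in the glucose library for 8 and in the poplar library for 14. These were 35.3%, 23.5% and 41.2%, near the 30.3%, 32.1% and 37.6% of the 10756 gene models that reached 1 RPKM in any library. Only 5 of the 34 reached 100 RPKM in any library, and 4 stayed under 10 RPKM in all 3. The median log2 ratio was 0.15 for poplar against glucose, 0.04 for poplar against PDA and −0.15 for glucose against PDA.

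The most abundant DnaJ models had levels well under those of the main HSP70 models. Trave1_125359 has the KEGG entry DNAJC19, a protein of the import motor in the inner mitochondrial membrane. It measured 204 RPKM on PDA, 179 on glucose and 147 on poplar, 1.39-fold lower (1.08 to 1.80) on poplar than on PDA. Trave1_150430, with the entry DNAJC7, a co-chaperone with tetratricopeptide repeats, measured 158, 143 and 186 RPKM on PDA, glucose and poplar. Trave1_146581, with the entry DNAJA2, a general partner of cytosolic HSP70, measured 133, 124 and 96.8 RPKM in that order, and was 1.28-fold lower (1.11 to 1.49) on poplar than on glucose.

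The DNAJC7 entry was shared by 6 models, which did not follow a common order. Of these, Trave1_175250 and Trave1_49551 are described as DnaJ-domain proteins. Trave1_42107 is described as a TPR-like (tetratricopeptide repeat) protein, and Trave1_150430, Trave1_47883 and Trave1_71066 as hypothetical. The latter models entered through KEGG alone, so whether they hold a DnaJ domain was not tested. Trave1_47883 measured 15.3 RPKM on PDA, 21.5 on glucose and 7.94 on poplar, 2.71-fold lower (1.72 to 4.40) on poplar than on glucose. Trave1_71066 went the other way, with 12.5, 7.95 and 18.7 RPKM on PDA, glucose and poplar. It was 2.35-fold higher (1.59 to 3.55) on poplar than on glucose, and with a pseudocount of 5 its log2 ratio was 0.87. Summed over the 6 models, the level was 305 RPKM on PDA, 271 on glucose and 319.8 on poplar.

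The 2 DnaJ members that were highest on PDA by 2-fold in a comparison, with at least 10 RPKM, carry a first KEGG entry for an unrelated enzyme. Trave1_80794, a partial DnaJ-domain protein that KEGG names a phosphomannomutase, measured 87.6 RPKM on PDA, 31.8 on glucose and 45.4 on poplar. It was 2.75-fold lower (2.01 to 3.81) on glucose than on PDA. Trave1_155473, a DnaJ-domain protein that KEGG names a hydroxymethylglutaryl-CoA lyase, measured 79.2, 49.2 and 38.8 RPKM in that order. It was 2.04-fold lower (1.64 to 2.55) on poplar than on PDA, and with a pseudocount of 5 its log2 ratio was −0.94.

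Further DnaJ models were of several kinds. The entry SCJ1, a DnaJ protein of the lumen of the endoplasmic reticulum in S. cerevisiae, was carried by 2 models with a summed 38.0 RPKM on PDA, 32.9 on glucose and 53.2 on poplar. Trave1_164479, with the entry SEC63, part of the channel into the endoplasmic reticulum, measured 98.6, 110.2 and 90.5 RPKM in the same order. Hsc20, Trave1_159455, which serves iron-sulphur cluster assembly, had 9, 3 and 12 reads, and its ratio of poplar to glucose was 3.83 (1.03 to 21.1). Trave1_72691, a subfamily B member, measured 24.2, 49.2 and 24.6 RPKM on PDA, glucose and poplar. It narrowly missed the 2-fold limit for glucose against PDA, with a log2 ratio of 0.99, and for poplar against glucose, with −0.97.

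BCS1 is an AAA protein that in S. cerevisiae inserts the Rieske iron-sulphur protein into complex III of the respiratory chain. The 5 models with this entry summed to 187 RPKM on PDA, 299.7 on glucose and 139.9 on poplar. Of the 5, 4 had their highest level on glucose, beside 32.1% of the 10756 gene models that reached 1 RPKM in any library. Trave1_168423 measured 89.2 RPKM on PDA, 157 on glucose and 34.8 on poplar. It was 4.51-fold lower (3.84 to 5.32) on poplar than on glucose and 2.56-fold lower (2.16 to 3.05) than on PDA. Trave1_167728 measured 14.7, 35.4 and 24.4 RPKM on PDA, glucose and poplar and was 2.41-fold higher (1.86 to 3.14) on glucose than on PDA. Trave1_161235 measured 40.1, 56.8 and 37.9 RPKM in that order and was 1.42-fold higher (1.18 to 1.72) on glucose than on PDA. The other two ranged from 15.5 to 27.4 RPKM and reached 2-fold in no comparison.

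**Figure D5:**
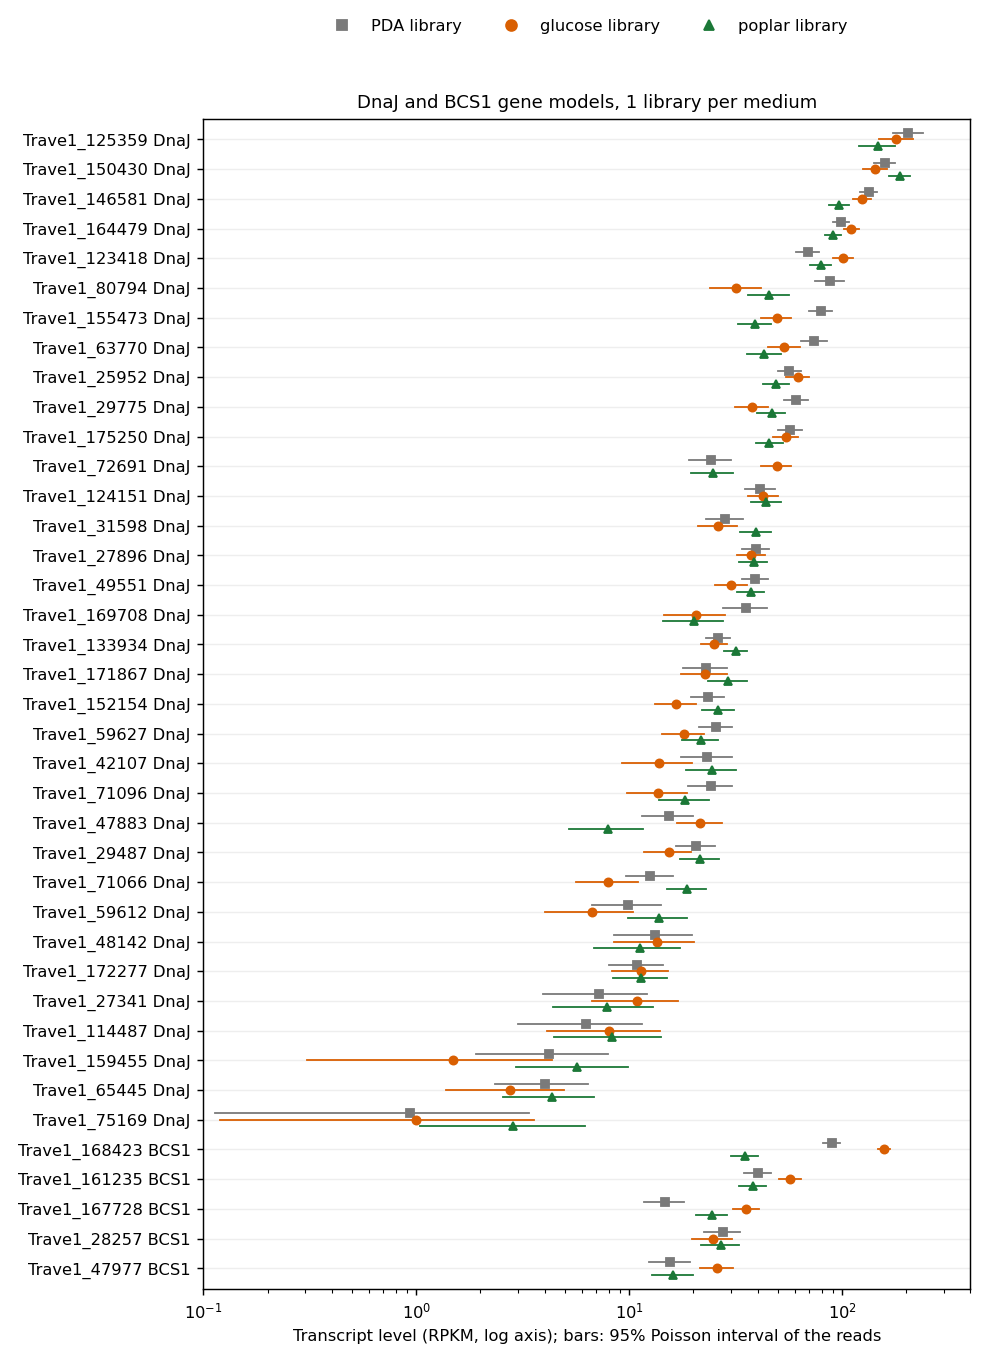
RPKM on a log axis of the 34 DnaJ and 5 BCS1 gene models in the PDA, glucose and poplar libraries (symbols), with 95% Poisson intervals of the reads as bars. Most DnaJ points lie close together within a row, and the BCS1 model Trave1_168423 spans 34.8 RPKM on poplar to 157 RPKM on glucose.

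Folding factors that the text rule did not take in were counted with lists matched on the same descriptions. The rule had caught 1 subunit of the cytosolic TCP-1 chaperonin, zeta, Trave1_56419, at 31.5 RPKM on PDA, 27.2 on glucose and 34.2 on poplar. The list for TCP-1 by other wording held 8 models, of which Trave1_37129 is a Tcp11-domain protein and no subunit. None of the 8 reached 2-fold in any comparison. On glucose 7 of the 8 were lower than on PDA, beside 5155 of 10487 genes. The list median log2 ratio was −0.54, beside 0.01 over all genes. Of the 7, the gamma subunit Trave1_138282 had the largest difference. It measured 108 RPKM on PDA, 64.6 on glucose and 85.0 on poplar, 1.68-fold higher (1.45 to 1.94) on PDA than on glucose. The 4 models for folding in the endoplasmic reticulum had log2 ratios of −0.50 to −0.33 for poplar against glucose, beside −0.48 for the BiP model, and none of the 4 reached 2-fold in any comparison. Ratios below 0 were found for 4624 of 10636 genes in that comparison, and for the oxidoreductin Trave1_63156 the interval included 1. Among the 4, the protein disulfide isomerase Trave1_144497 measured 827 RPKM on PDA, 952 on glucose and 674 on poplar.

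The list for prolyl isomerases, which speed the turning of proline bonds, matched 20 models. Of these, Trave1_61668 and Trave1_167880 carry the entry of the FKBP12-rapamycin complex-associated protein, a kinase, and are no isomerases. Of the 20, 0 were higher and 0 lower on poplar against either other medium. Their median log2 ratio for poplar against glucose was 0.09, beside 0.08 over all genes. For glucose against PDA 1 was higher and 0 lower, and the higher one was the kinase Trave1_61668. The 5 prefoldin subunits, which hand unfolded actin and tubulin to TCP-1, had 0 members past 2-fold in any comparison. Their median for glucose against PDA was −0.48, beside 0.01 over all genes. The co-chaperone list held 2 models and the ubiquitin list 2, with 0 past 2-fold in any comparison. In the co-chaperone list Trave1_68586 was matched only by the description SGT1-domain protein and has no KEGG entry. Whether it is a co-chaperone was not tested. Of 5 heat shock transcription factor models, 4 were measured and 0 reached 2-fold. Trave1_70562, the most abundant of them on PDA, measured 227 RPKM on PDA, 201 on glucose and 164 on poplar. A list for ClpB, the family of the disaggregase HSP104, was added after the values were seen, and its 2 models had at most 8.12 RPKM.

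Trehalose, a sugar that also stabilises proteins in heated fungal cells, had a list of 6 models. It held synthesis genes together with models that KEGG names trehalases, so its counts give no single direction for the sugar. For glucose against PDA 0 were higher and 3 lower, beside 12.7% and 6.52% of all genes. For poplar against glucose 1 was higher and 0 lower, beside 8.10% and 8.31%. For poplar against PDA none reached 2-fold, beside 15.9% of all genes in either direction. The trehalose synthase Trave1_28511 measured 937 RPKM on PDA, 325 on glucose and 665 on poplar, 2.88-fold higher (2.74 to 3.04) on PDA than on glucose. The trehalose 6-phosphate phosphatase Trave1_153374 measured 123, 57.2 and 111 RPKM in that order. The third was Trave1_175827, a glycoside hydrolase that KEGG names a trehalase, at 572, 230 and 312 RPKM.

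The order of levels within a library was led by Trave1_59887 in each. In the PDA library it was followed by the HSP70 models Trave1_28053 and Trave1_119367, the HSP90 model Trave1_136932 and BiP, Trave1_170905. The next members there, HSP30, HSP10, Shr3 and the copper chaperone, lay between 356 and 385 RPKM, and their Poisson intervals overlapped. In the glucose library the small heat shock proteins Trave1_174621 and Trave1_167159 entered the 10 highest members, at positions 6 and 9, and HSP30 was not among them. In the poplar library the copper chaperone and Shr3 followed the 2 HSP70 models, at 452 and 433 RPKM with overlapping intervals.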

How the data were processed

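RNA enriched on oligo(dT) beads was sequenced, with an Illumina HiSeq named in the labels' protocols. For each library the authors deposited read counts per gene model, uniquely assigned per the file headers, with RPKM and percent coverage. The deposited RPKM was recomputed here from count, length and the count total in the header, and matched. Nearly all lengths are multiples of 3, so they are coding lengths. Percent coverage is the deposited share of the gene model covered by reads. Gene models with 0 reads are not listed and were set to 0. Cufflinks 2.0.1 stands in the submitters' processing notes with no role stated. The sources used here give no aligner, build or strandedness. Of 11480 gene models, 11443 have a protein of another isolate, FP-101664 SS1, as closest description.

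Ratios used a pseudocount of 1 RPKM. Fold intervals are exact conditional binomial, level intervals exact Poisson, and floors 3 reads. The intervals cover counting error alone, since each medium had 1 library. PCR reads that carry no molecular identifiers can repeat a molecule, which would make the intervals too narrow. Classes were read from the description, then from the first KEGG entry. Members given with folds were all small HSP and HSP90 models, the 3 highest of each other class, and all with a 2-fold ratio and at least 10 RPKM; others were chosen after their values were seen. The members and lists were chosen with earlier results of these data known. No sequences or coordinates were used. The scripts were tested on simulated data and ran under Python 3.11.15 with scipy 1.17.1. Alternatives were pseudocounts of 0.1 and 5, RPKM filters, median-of-ratios scaling, other text fields and a 1.5-fold threshold; leaving out the BCS1 or small HSP models was added after the data were seen.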

Additional observations from a re-analysis of the deposited data

How the results depend on the processing

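No paired analysis was possible because each medium had 1 library, and no replicate could be left out. Counts of called members stayed within 1.5 times of those reported except as follows. For poplar against glucose the 6 higher of 64 measured members became 2 with a pseudocount of 5 and 10 at a 1.5-fold threshold. Of all genes, 3.02% were higher with the pseudocount of 5 and 17.4% at 1.5-fold. With members by description alone, 3 of 41 measured were higher. For poplar against PDA the 0 higher members became 1 with a pseudocount of 0.1 and 3 at 1.5-fold, and the 4 lower became 1 with a pseudocount of 5 and 10 at 1.5-fold. Of all genes in that comparison, 13.7% were higher with the pseudocount of 0.1 and 21.4% at 1.5-fold, and 2.36% were lower with the pseudocount of 5 and 11.5% at 1.5-fold. For glucose against PDA the 5 higher became 9 and the 4 lower 15 at 1.5-fold, where 22.4% and 15.1% of all genes were called. By description alone, 2 of 40 measured members were lower in that comparison. Outside the small HSP class, a choice made after seeing the data, poplar against glucose had 3 higher and 2 lower of 54 measured. Poplar against PDA had 2 lower of 54, and glucose against PDA 1 higher and 2 lower of 53. Apart from the altered thresholds and lists, the causes were not tested. The member median for poplar against glucose went from 0.07 to −0.01 after median-of-ratios scaling, and that over all genes from 0.08 to −0.0005. Of 22 single-member ratios at 2-fold with at least 10 RPKM, none changed sign under the other pseudocounts or the scaling. With a pseudocount of 5, 5 were under 2-fold: Trave1_174621 at −0.98 and Trave1_155473 at −0.94 for poplar against PDA, and Trave1_71066 at 0.87, HSP30 at 0.99 and Trave1_48780 at 0.73 for poplar against glucose. With scaling 1 was, HSP30. Depth limits members with few reads, such as Trave1_83803, Trave1_73928 and Trave1_159455.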
